A study of Mus musculus with 3 samples.

Results

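The 10 core genes of the circadian clock, Npas2, Arntl (also called Bmal1), Clock, Per1, Per2, Per3, Cry1, Cry2, Nr1d1 and Dbp, were followed in poly(A) RNA of tail tendon derived stem cells, progenitor cells isolated from mouse tendon and expanded in culture. They were matched by Entrez gene ID and make up 10 of the 16621 genes listed in any library. All 10 were listed in all 3 libraries, and all 10 were among the 12888 genes that passed a filter on low counts. There were 2 libraries from cells of mice with the ΔF508 mutation of Cftr, the chloride channel gene of cystic fibrosis (DF508 replicates 1 and 2), and 1 library from wild-type cells (WT). All came from C57BL/6 mice aged 10 weeks, were grown without treatment and were collected at passage 4 from confluent dishes. Nothing in the labels ties the DF508 libraries to separate mice or dishes. It is therefore not known whether the spread between them is that of mice, of dishes or of repeat libraries. The WT library has no replicate. The labels give neither the hour of collection nor the time since the last change of medium, so a different level of the clock genes and a different phase of the clock cannot be told apart.

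The clock of mammalian cells is a transcriptional feedback loop. BMAL1, the product of Arntl, pairs with CLOCK or with its relative NPAS2, and the dimer binds E-box sequences and drives the Per, Cry, Nr1d1 and Dbp genes. PER and CRY proteins return to the nucleus and inhibit the dimer, while NR1D1 (REV-ERB alpha) represses Arntl and Npas2 through ROR elements, and DBP acts on D-box sequences of genes such as Per3. Cultured fibroblasts carry this oscillator cell by cell, and serum or glucocorticoids reset it by inducing Per1. Mouse tendon is known to hold such a clock.

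The genes were chosen by earlier values of these same libraries: the set was built around Npas2, selected on its lower expected count and FPKM in both DF508 libraries, and completed with the core loop. The DF508 to WT values of all 10 genes are therefore a description and carry no test. Expected counts, RSEM's estimates of the reads of each gene, were scaled to the library total (CPM), and FPKM values were used as deposited where genes of different length are compared. The totals were 5241826 and 5246886 counts in DF508 replicates 1 and 2, and 5298326 in WT. Ratios are given with exact 95% Poisson intervals (conditional binomial), which cover counting error only. Over all 12888 genes the median log2 ratio to WT was 0.043 in DF508 replicate 1 and 0.045 in replicate 2. Over the 10 clock genes it was 0.0155 and 0.0437.

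Cells of the labelled type were checked by their markers. All 15 tendon markers were listed in every library. The tendon transcription factor Mkx had 22.05 and 22.79 FPKM in the DF508 libraries and 26.04 FPKM in WT, and Tnmd, a membrane protein of tendon cells, had 82.50 and 145.31 FPKM against 70.16 FPKM. Scx, the early tendon factor, was low throughout, with 1.88 and 2.22 FPKM in DF508 and 2.71 FPKM in WT. The stem cell surface markers Thy1, Ly6a and Cd44 lay between 93.99 and 377.10 FPKM (Ly6a shares reads and is uncertain), and Nt5e did not exceed 0.53 FPKM in any library. Cftr had 1 count in each DF508 library and 15 counts in WT and did not pass the test across all genes (edgeR adjusted p = 0.185). The deletion is in frame and short, so this level does not check the genotype.

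Promoter windows of the members were searched for the sequence motifs of the loop. RefSeq promoters of assembly GRCm38.p6, reaching from 250 bases before to 50 bases after a start, were at hand for 9 of the 10 genes (13 promoters). Per2 had none at hand and was not searched. The mapping of the reads used mm9, so these coordinates belong to the promoters alone. Shown are 6 of them, because they belong to the activators with the lowest ratios to WT and to Per and Cry genes that carry clock motifs. Capitals mark the E-box CACGTG, the variant E-prime box CACGTT, the D-box TTATGTAA and the ROR half-site AGGTCA, each searched on both strands.
Npas2: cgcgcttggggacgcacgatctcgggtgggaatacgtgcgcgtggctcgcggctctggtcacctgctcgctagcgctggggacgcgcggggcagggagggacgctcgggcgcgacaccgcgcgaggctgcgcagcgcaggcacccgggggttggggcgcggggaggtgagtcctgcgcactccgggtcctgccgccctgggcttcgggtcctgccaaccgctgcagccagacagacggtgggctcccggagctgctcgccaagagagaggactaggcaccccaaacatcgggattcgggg
Arntl: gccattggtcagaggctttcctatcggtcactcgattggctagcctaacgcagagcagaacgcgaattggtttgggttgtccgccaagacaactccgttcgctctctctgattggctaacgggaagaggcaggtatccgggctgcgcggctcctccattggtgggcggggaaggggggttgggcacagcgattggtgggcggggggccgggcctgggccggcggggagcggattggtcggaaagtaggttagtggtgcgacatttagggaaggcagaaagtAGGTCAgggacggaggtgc
Per1: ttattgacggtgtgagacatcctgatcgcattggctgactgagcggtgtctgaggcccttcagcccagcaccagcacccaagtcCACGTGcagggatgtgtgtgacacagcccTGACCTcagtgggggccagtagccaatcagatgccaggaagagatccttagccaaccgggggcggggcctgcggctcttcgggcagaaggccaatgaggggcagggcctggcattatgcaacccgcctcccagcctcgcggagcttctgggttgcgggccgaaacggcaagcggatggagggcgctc
Per3: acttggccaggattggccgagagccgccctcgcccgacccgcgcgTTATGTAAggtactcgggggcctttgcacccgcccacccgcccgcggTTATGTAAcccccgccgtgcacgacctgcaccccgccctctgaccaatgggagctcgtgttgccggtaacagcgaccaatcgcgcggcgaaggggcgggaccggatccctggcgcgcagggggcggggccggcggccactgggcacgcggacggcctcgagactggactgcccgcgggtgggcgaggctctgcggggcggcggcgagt
Cry1: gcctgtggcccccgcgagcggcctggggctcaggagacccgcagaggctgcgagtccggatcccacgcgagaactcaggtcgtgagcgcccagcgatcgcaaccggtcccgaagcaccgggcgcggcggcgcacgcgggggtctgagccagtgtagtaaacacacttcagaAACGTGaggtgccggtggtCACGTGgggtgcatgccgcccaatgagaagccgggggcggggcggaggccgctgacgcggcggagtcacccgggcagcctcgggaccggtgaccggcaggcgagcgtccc
Cry2: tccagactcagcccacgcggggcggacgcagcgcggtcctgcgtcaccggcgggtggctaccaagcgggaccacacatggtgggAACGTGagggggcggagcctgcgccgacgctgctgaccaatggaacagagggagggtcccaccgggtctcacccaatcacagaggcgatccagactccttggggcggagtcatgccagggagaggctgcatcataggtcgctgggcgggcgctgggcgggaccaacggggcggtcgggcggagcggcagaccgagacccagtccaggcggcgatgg

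The Npas2 window lies at chr1:39194022-39194321 on the plus strand, and none of the 4 motifs is in it. The Arntl window, chr7:113207261-113207560 on the plus strand, holds a ROR half-site that begins 32 bases into the transcript. The window of Per1, chr11:69098699-69098998 on the plus strand, has an E-box that begins at base -166 from the start and a ROR half-site at base -137. Per3, chr4:151044616-151044915 on the minus strand, has D-boxes at bases -205 and -158. Cry1, chr10:85185005-85185304 on the minus strand, has an E-box at base -60 and an E-prime box at base -79. Cry2, chr2:92434020-92434319 on the minus strand, has an E-prime box at base -166. Of all 32851 promoters in the table, 7.15% hold an E-box, 4.68% an E-prime box, 0.938% the D-box and 16.3% a ROR half-site on either strand. Of the 13 promoters of these genes, 2 hold an E-box, 3 an E-prime box, 1 the D-box and 3 a ROR half-site. There is no match in 6 of the 13, among them the other starts of Arntl and Per1, 2 of the 3 starts of Clock, and Dbp. A match shows that the letters are there, not that a factor binds. A lack of a match, as at Npas2, covers only these exact letters in the window searched.

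The activator arm was lower in DF508 at Npas2 and Arntl and not at Clock. Npas2, the PAS-domain transcription factor that can take the place of CLOCK, had 44 and 31 counts in DF508 replicates 1 and 2, against 110 counts in WT. These were 2.00 and 1.41 FPKM in DF508 and 4.94 FPKM in WT, with both DF508 libraries well below WT. The ratio to WT was 0.404 (0.278 to 0.579) in replicate 1 and 0.285 (0.185 to 0.427) in replicate 2. Over both libraries Npas2 averaged 7.15 ± 1.76 CPM in DF508 (SD, n = 2) and 20.8 CPM in WT (n = 1), 2.90-fold lower in DF508. Npas2 ranked 6 from the lowest ratio to WT among the 10959 genes that averaged 5 CPM or more. It was selected for its low DF508 values, so this rank restates the choice and tests nothing.

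Arntl encodes the partner that both CLOCK and NPAS2 require. It had 74 counts in each DF508 library and 111 counts in WT, or 4.82 and 4.93 FPKM against 7.16 FPKM. The ratio to WT was 0.674 (0.495 to 0.912) in replicate 1 and 0.673 (0.495 to 0.912) in replicate 2, so the DF508 libraries were alike and both below WT. Clock, which encodes the usual partner of BMAL1, had 398 and 368 counts in DF508 and 398 counts in WT. Its ratios of 1.01 (0.877 to 1.16) and 0.934 (0.808 to 1.08) fell on either side of 1, and WT lay between the DF508 libraries.

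**Figure D1:**
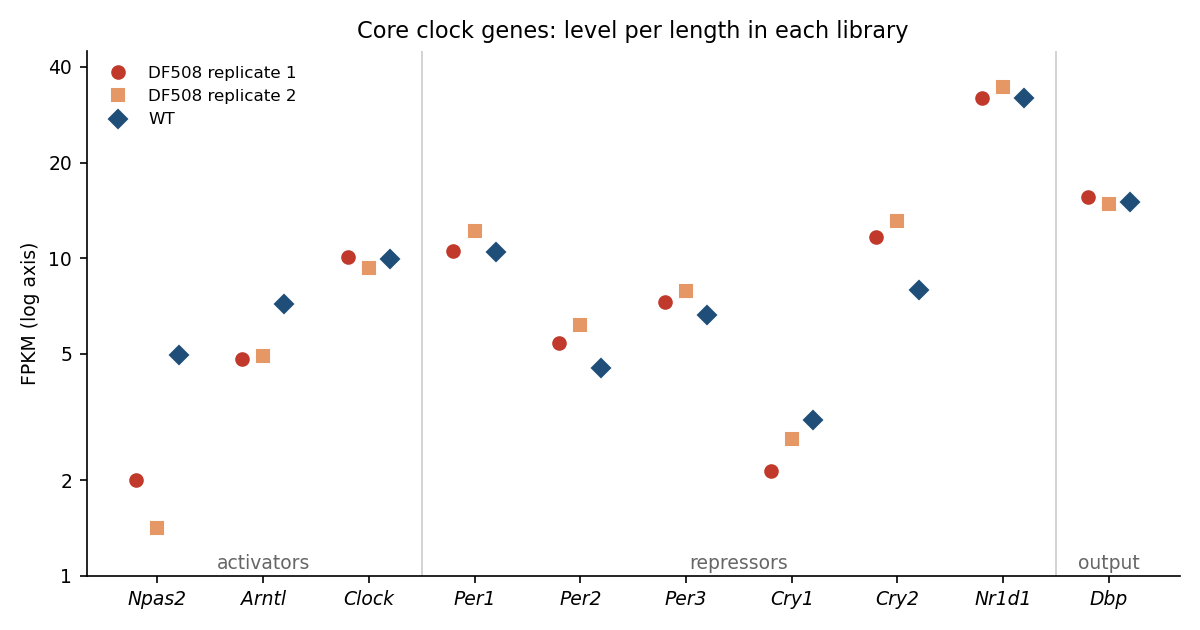
FPKM on a log axis for each of the 10 core clock genes in DF508 replicate 1 (circles), DF508 replicate 2 (squares) and WT (diamonds). Npas2 stood at 2.00 and 1.41 FPKM in the DF508 libraries and 4.94 FPKM in WT, the widest gap among the 10, while Clock, Nr1d1 and Dbp nearly coincide.

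The Period genes, whose proteins carry the inhibitory complex into the nucleus, were level with or above WT. Per2 had 167 and 191 counts in the DF508 libraries against 141 counts in WT, 5.41 and 6.18 FPKM against 4.52 FPKM. Its ratios were 1.20 (0.951 to 1.51) in replicate 1 and 1.37 (1.10 to 1.71) in replicate 2, both DF508 libraries above WT but counting error alone covering the gap in replicate 1. Per3 had 229 and 248 counts in DF508 and 210 counts in WT, with ratios of 1.10 (0.910 to 1.34) and 1.19 (0.988 to 1.44). Per1, which serum and glucocorticoids induce directly, had 260 and 300 counts in DF508 and 260 counts in WT. Its ratio was 1.01 (0.848 to 1.21) in replicate 1 and 1.17 (0.984 to 1.38) in replicate 2, so only replicate 2 stood apart and within its counting interval.

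The cryptochromes, the strongest inhibitors of the CLOCK and BMAL1 dimer, went opposite ways. Cry2 had 234.03 and 255.39 counts in DF508 and 166.97 counts in WT, or 11.69 and 13.05 FPKM against 7.94 FPKM. Its ratios of 1.42 (1.16 to 1.74) and 1.54 (1.26 to 1.89) were the highest among the 10 genes. Cry2 is also the only one of the 10 whose estimates are not whole numbers. RSEM thus divided some of its reads with a second gene or copy, which makes its count uncertain. Its length in the tables also differed, at 3801.85 and 3712.85 bases in DF508 and 3946.27 bases in WT, which enters its FPKM. Cry1 was the scarcest repressor, with 34 and 43 counts in DF508 and 50 counts in WT. Its ratios were 0.687 (0.431 to 1.08) and 0.868 (0.564 to 1.33), below WT in both DF508 libraries but inside the counting interval in each.

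Nr1d1, the nuclear receptor that represses Arntl, was the most abundant of the 10 genes per length and close to WT. It had 441 and 478 counts in DF508 and 445 counts in WT, or 32.02 and 34.66 FPKM against 31.95 FPKM. The ratios were 1.00 (0.876 to 1.15) and 1.09 (0.951 to 1.24). Dbp, a PAR-bZIP factor often read as the output of the E-box loop, had 136 and 129 counts in DF508 and 133 counts in WT, with ratios of 1.03 (0.808 to 1.32) and 0.979 (0.763 to 1.26). WT lay between the DF508 libraries. In the GENCODE M21 annotation 8.55% of the exonic bases of Nr1d1 are shared with Thra, 18% of those of Dbp with Sphk2, 4.67% of those of Cry2 with D930015M05Rik and 0.439% of those of Arntl with Gm45355, all on the opposite strand. The sources used here do not give the strand setting of the counting. Thra had 683 and 654 counts in DF508 and 649 in WT, and Sphk2 213 in each DF508 library and 204 in WT, each neighbour being close to its WT count.

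Across the 10 genes, WT lay above both DF508 libraries for 3 (Npas2, Arntl and Cry1), below both for 5 (Per1, Per2, Per3, Cry2 and Nr1d1) and between them for 2 (Clock and Dbp). WT was thus outside the DF508 pair for 8 of 10, against 72.9% of all genes tested, of which 29.6% had WT above both DF508 libraries and 43.3% had it below both. In replicate 1 the log2 ratios of Per1 (0.0155), Nr1d1 (0.00244) and Clock (0.0155) were under the all-gene median of 0.043, so relative to that median their direction turns. A ratio interval that excluded 1 was found for 3 genes in replicate 1 (Npas2, Arntl and Cry2) and for 4 in replicate 2, where Per2 joined them. Between the DF508 libraries themselves the counting interval of the ratio held 1 for all 10 genes. The widest such gap was at Npas2, where replicate 2 had 0.704 (0.430 to 1.14) of the level of replicate 1. How many of all genes have intervals that exclude or hold 1 was not counted. These interval counts are therefore not read as a result about the clock genes. Of the 10 genes, Npas2 alone was 2-fold or more lower in both DF508 libraries and none was 2-fold or more higher, where 0.652% and 2.17% of 12883 genes averaging 1 CPM or more were. In the model across all genes 1 of the 10, Npas2, was called at an adjusted p under 0.05 (quasi-likelihood fit of edgeR with Benjamini-Hochberg adjustment), against 1.39% of all genes. Npas2 was chosen for this contrast, so nothing is read from that call.

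**Figure D2:**
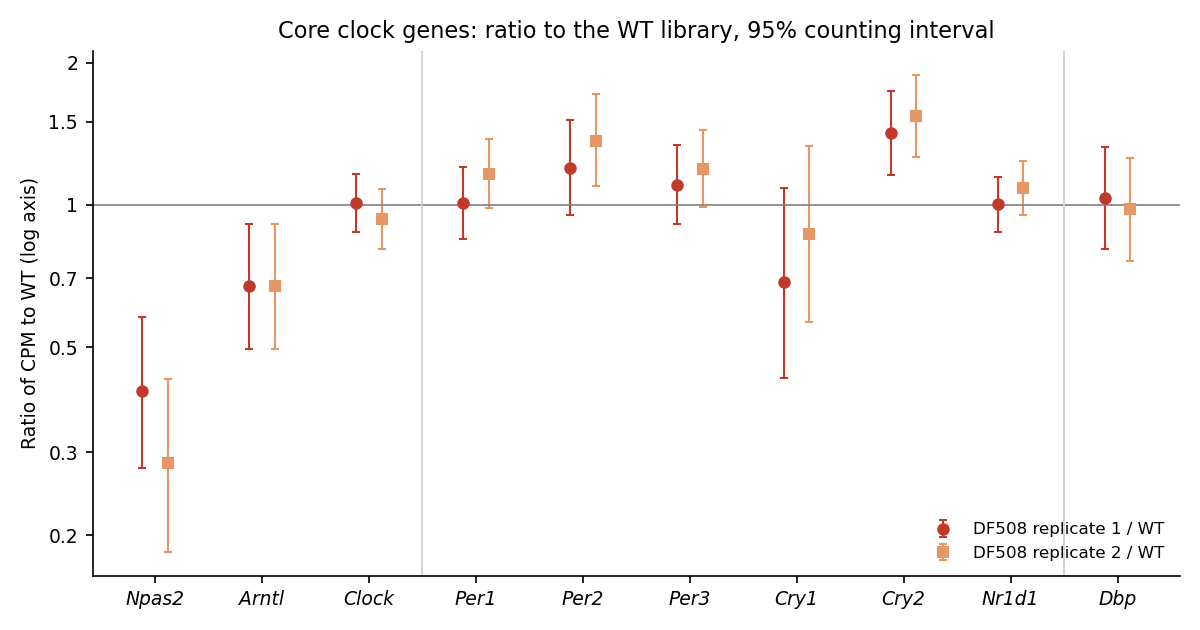
Ratio of CPM in each DF508 library to WT on a log axis, with exact 95% counting intervals, for the 10 core clock genes; circles are DF508 replicate 1 and squares replicate 2. The intervals of Npas2 and Arntl lie below 1 and those of Cry2 above 1 in both libraries, and Clock, Nr1d1 and Dbp sit on the line.

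The activator arm was set against the repressor arm within each DF508 library. The mean log2 ratio to WT over Npas2, Arntl and Clock was -0.62 in replicate 1 and -0.83 in replicate 2. Over the 6 repressors, the Per and Cry genes and Nr1d1, it was 0.06 and 0.25, or 0.02 and 0.20 with TMM scaling, so that in replicate 1 the repressor mean was close to the all-gene median of 0.043. The activator mean minus the repressor mean was thus -0.68 in replicate 1 and -1.07 in replicate 2. Without Npas2 the difference was -0.34 and -0.58. Clock, at log2 ratios of 0.02 and -0.10, and Cry1, at -0.54 and -0.20, did not follow the mean of their arm. The members were chosen with these values known, so the difference is not tested.

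By level per length, the order of the 10 genes in DF508 was Nr1d1, Dbp, Cry2, Per1, Clock, Per3, Per2, Arntl, Cry1 and Npas2, with means from 33.3 ± 1.87 to 1.71 ± 0.417 FPKM (SD, n = 2). In WT the order was Nr1d1, Dbp, Per1, Clock, Cry2, Arntl, Per3, Npas2, Per2 and Cry1, from 31.95 to 3.10 FPKM. Npas2 was 10th in DF508 and 8th in WT, Arntl 8th and 6th, Per2 7th and 9th, and Cry2 3rd and 5th. Among neighbours in the DF508 order, only Cry2 and Per1 had overlapping values in the DF508 libraries. In WT there is 1 library, so the spread behind its order is unknown.

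Ratios between 2 genes within a library do not depend on how libraries are scaled. Per length, Npas2 stood at 0.199 and 0.152 of Clock in the DF508 libraries and at 0.496 of Clock in WT. In counts the ratio was 0.111 (0.0791 to 0.151) and 0.0842 (0.0564 to 0.122) in DF508 and 0.276 (0.222 to 0.342) in WT. The counting intervals of both DF508 libraries lay below that of the single WT library. Npas2 was chosen for its low DF508 values and Clock was near WT, so this ratio restates those values and tests nothing. FPKM of Npas2 and Clock summed to 12.06 and 10.70 in DF508 and to 14.89 in WT. The ratio of Npas2 to Arntl counts was 0.595 (0.4 to 0.875) and 0.419 (0.266 to 0.645) in DF508 and 0.991 (0.754 to 1.30) in WT, so Npas2 was also low relative to Arntl, though the interval of replicate 1 met that of WT.

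On the repressor side, Cry2 had 5.49 and 4.85 times the FPKM of Cry1 in DF508 and 2.56 times in WT. The count ratio of Cry2 to Cry1 was 6.88 (4.79 to 10.2) and 5.93 (4.28 to 8.40) in DF508 and 3.34 (2.42 to 4.68) in WT, with the uncertainty of Cry2 noted above. Per2 to Per1 was 0.642 (0.526 to 0.783) and 0.637 (0.528 to 0.766) in DF508 and 0.542 (0.439 to 0.668) in WT, which overlap. Nr1d1 to Arntl, repressor to target, was 5.96 (4.65 to 7.73) and 6.46 (5.05 to 8.37) in DF508 and 4.01 (3.25 to 4.98) in WT.

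**Figure D3:**
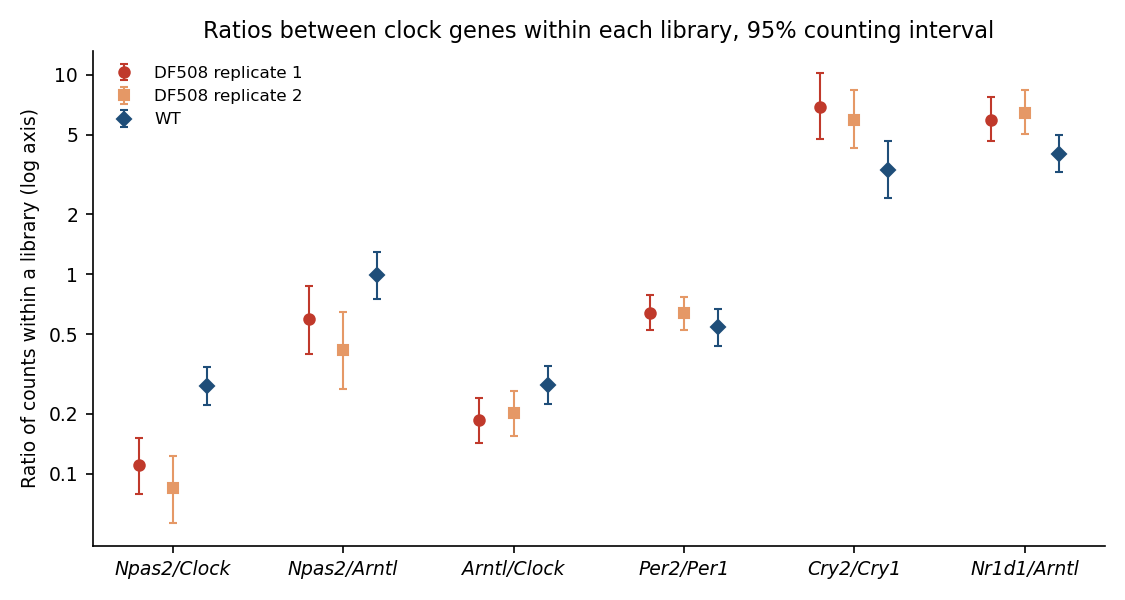
Ratio of counts of 6 pairs of clock genes within each library on a log axis, with exact 95% counting intervals; circles are DF508 replicate 1, squares DF508 replicate 2 and diamonds WT. Npas2 to Clock was 0.111 and 0.0842 in DF508 and 0.276 in WT, and the Per2 to Per1 intervals of all 3 libraries overlap.

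Outside the core set, 56 further clock genes in 5 lists were listed in the libraries, and 55 passed the filter on low counts. None rose and 1 fell, the E-box repressor Bhlhe40 (Dec1), whose protein competes with the clock dimer for its sites, and 54 did not pass. Over all genes tested, 0.489% rose and 0.9% fell. The 5 lists were chosen with earlier results of these data known, so their calls only describe these data. Bhlhe40 had 436 and 427 counts in DF508 and 693 counts in WT, or 26.65 and 26.07 FPKM against 41.90 FPKM, both DF508 libraries well below WT. It was 1.64-fold lower in DF508 (log2 fold change -0.71 ± 0.10 SE, edgeR adjusted p = 0.0198), but had an adjusted p of 0.113 with DESeq2's Wald test and 0.493 with limma on log2(FPKM + 1). Limma called 0 of all 12230 genes it tested, so lacking a limma call, here and below, does not set a gene apart. Of the 55 log2 fold changes 27 were positive and 28 negative, and their median was -0.01, beside a median of 0.01 over all genes. Over all genes tested 6561 were positive and 6327 negative. The signs within the single lists below were not tested. At an unadjusted p under 0.05 there were 10 of the 55, where 1538 of all 12888 genes (11.9%) were under it.

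Bhlhe40 belongs to the 8 tested regulators of the secondary loop, of which it alone passed. The other 7 did not pass, and over all 8 the median log2 fold change was -0.39, with 7 negative. The ROR receptors, which activate Arntl and Npas2 at the sites that NR1D1 represses, included Rora, with 12.76 and 12.05 FPKM in DF508 and 15.61 FPKM in WT (adjusted p = 0.502). Nr1d2, the relative of Nr1d1, was the positive one, with 16.83 and 16.73 FPKM in DF508 and 14.10 FPKM in WT (adjusted p = 0.529). Arntl2, the relative of Arntl, had 17 and 20 counts in DF508 and 22 counts in WT, a level at which a small difference was not detectable. Rora, Nr1d2 and Arntl2 were picked after their values were seen, for their ties to Arntl.

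Neither D-box factor tested besides Dbp passed. Tef, an activator related to Dbp, had 22.92 and 21.98 FPKM in DF508 and 17.59 FPKM in WT (log2 fold change 0.30 ± 0.11 SE, edgeR adjusted p = 0.316). The D-box repressor Nfil3 had 14.89 and 16.67 FPKM in DF508 and 21.86 FPKM in WT (log2 fold change -0.51 ± 0.16 SE, edgeR adjusted p = 0.202). Hlf, with 1 and 5 counts in DF508 and 2 counts in WT, was too low to be tested.

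Among enzymes that modify clock proteins (kinases, phosphatases, ubiquitin ligases and deacetylases) none of 19 passed, with a median log2 fold change of -0.03. Those highest in level were the casein kinase Csnk1a1 (100.10 and 90.56 FPKM in DF508, 105.12 FPKM in WT), Csnk2b, the regulatory subunit of casein kinase 2 (69.44 and 69.87 FPKM, against 70.90 FPKM), and the kinase Gsk3a (40.39 and 43.11 FPKM, against 43.44 FPKM). Of 14 cofactors none passed either, with a median of 0.13 and 11 positive. Among these the scaffold protein Rack1 had 451.12 and 482.49 FPKM in DF508 and 465.90 FPKM in WT, and the RNA-binding PER partners Nono and Sfpq had 119.73 and 117.81 FPKM against 110.40 FPKM, and 63.00 and 63.06 FPKM against 51.78 FPKM. The estimates of Nono are not whole and so uncertain.

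None of 12 genes that clocks commonly drive passed, with a median of -0.14. The cold-inducible RNA-binding protein Rbm3, whose estimates are not whole and so uncertain, had 122.02 and 117.22 FPKM in DF508 and 123.95 FPKM in WT, and the ER stress protein Herpud1 34.75 and 38.19 FPKM against 44.61 FPKM. Por, the electron donor of cytochrome P450 enzymes, had 14.53 and 20.49 FPKM in DF508 and 16.22 FPKM in WT. Klf10, a TGF-beta-induced repressor, alone among the further clock genes differed 2-fold or more from WT in each DF508 library, with 54 and 69 counts against 25 counts in WT (log2 fold change 1.26 ± 0.34 SE, edgeR adjusted p = 0.158). Nampt, the NAD-producing enzyme that clock activators drive, had 11.22 and 10.25 FPKM in DF508 and 14.52 FPKM in WT (log2 fold change -0.48 ± 0.12 SE, edgeR adjusted p = 0.14). Klf10 and Nampt were picked after their values were seen.

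**Figure D4:**
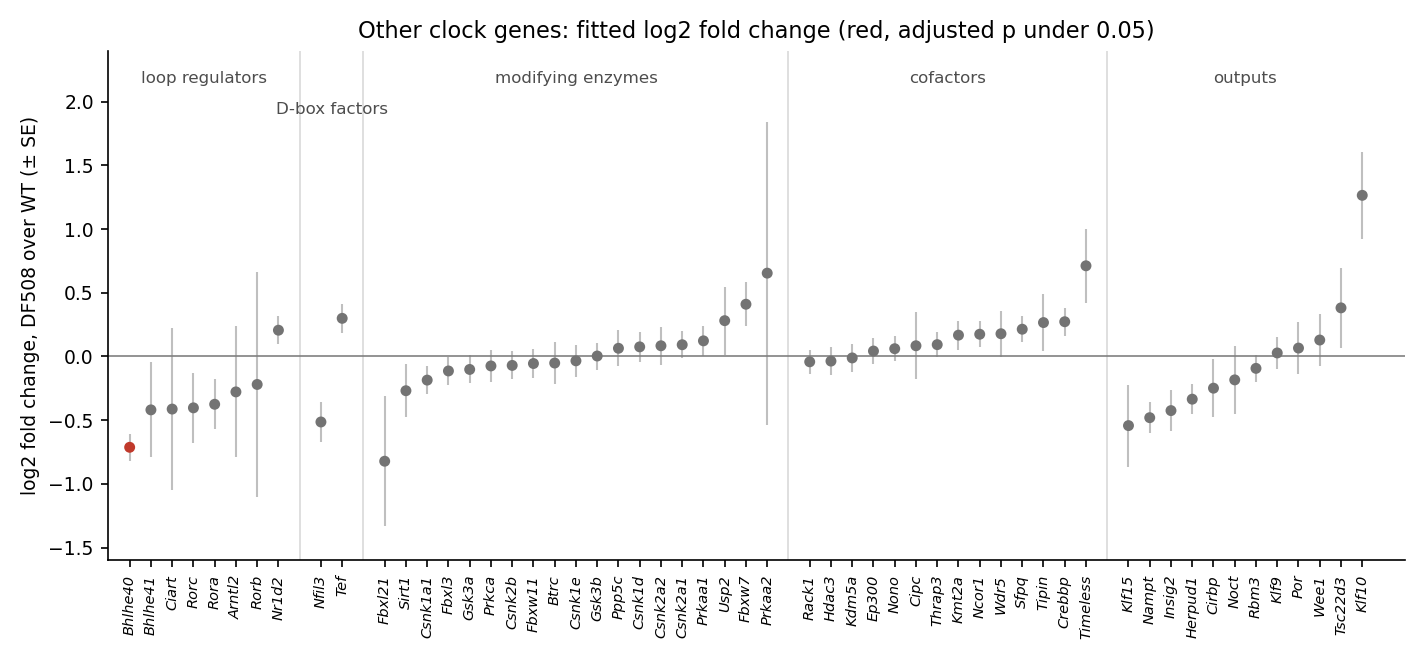
Fitted log2 fold change of DF508 over WT, with its SE as a bar, for the 55 tested clock genes outside the core set, sorted within each of 5 lists; red marks an adjusted p under 0.05. Bhlhe40 (-0.71) is the only red point, and no modifying enzyme, cofactor or output gene is red.

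Npas2 belongs to the bHLH-PAS family, whose other members sense oxygen, foreign chemicals or developmental cues. Of 8 tested relatives outside the clock, 1 fell and none rose, where 0.9% of all genes tested fell and 0.489% rose. This list was likewise chosen with earlier results of these data known. The hypoxia factor Epas1 (HIF-2 alpha), which shares reads and is uncertain, had 21.83 and 23.97 FPKM in DF508 and 51.03 FPKM in WT. It was 2.30-fold lower in DF508 (log2 fold change -1.20 ± 0.11 SE, edgeR adjusted p = 0.00335, DESeq2 adjusted p = 7.63e-07, limma adjusted p = 0.493). Hif1a, picked after its values were seen as the best known relative of Epas1, had 96.54 and 96.14 FPKM in DF508 and 127.75 FPKM in WT and did not pass (edgeR adjusted p = 0.0588). Of the 8 log2 fold changes 6 were negative, and the median was -0.20.

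The genes most like Npas2 over the 3 libraries, by Euclidean distance between centred log2(CPM + 0.5) values among the same 10959 genes, were Zbp1, Cbln1, AW011738, Ifit3, Ifit1 and Gdf6, at distances of 0.0993 to 0.158. With 3 libraries many genes can follow such a pattern. Zbp1, a nucleic acid sensor, had 50 and 39 counts in DF508 and 127 counts in WT, and Gdf6, a BMP ligand, had 30 and 22 counts against 89 counts. Cbln1, a secreted synaptic organiser in neurons, had 31 and 23 counts in DF508 and 75 counts in WT. Ifit1 and Ifit3, which interferon induces, share reads and are uncertain.

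Genes that respond to serum, stress and glucocorticoids, which can reset a fibroblast clock, were measured beside the clock genes. Immediate early genes, induced by serum and stress within a short time, fell in 13 of 22 cases and rose in none, the median of their log2 fold changes being -0.68. Over all genes tested 0.9% fell. The immediate early and glucocorticoid lists were chosen with earlier results of these data known, so their shares of calls only describe these data. Of the 22 log2 fold changes 18 were negative and 4 positive. The positive ones, named after their values were seen, were Nr4a1, Nr4a2 (which shares reads and is uncertain), Crem and Sik1. Jun fell 2.31-fold, Dusp1 1.98-fold, Zfp36 1.92-fold and Fosb 1.89-fold (edgeR adjusted p = 0.0193, 0.00813, 0.00831 and 0.0112). With DESeq2's Wald test 7 of the 13 calls were made, 5 were not (Jun, Ier3, Klf2, Klf4 and Klf6, the adjusted p of Jun being 0.229) and 1 had no adjusted p, and limma on log2(FPKM + 1) called none of the 13. Of 9 glucocorticoid-responsive genes 3 fell and none rose, Dusp1, Cebpd (1.62-fold, edgeR adjusted p = 0.0333) and Sgk1 (1.59-fold, edgeR adjusted p = 0.0429). Cebpd was not called with DESeq2 (adjusted p = 0.167), and limma called none of the 3. Fkbp5 and Tsc22d3, also glucocorticoid targets, did not pass, with 90 and 79 counts in DF508 and 65 counts in WT for Fkbp5, and 66 and 107 counts in DF508 and 65 counts in WT for Tsc22d3. Fkbp5 and Tsc22d3 were picked after their values were seen. Their part in the clock gene values was not tested.

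Some markers of other cells differed as well. All 15 myeloid markers were listed in every library, and their summed level was 161.9 and 757.9 CPM in DF508 replicates 1 and 2 and 101.6 CPM in WT. Of the 15 none passed, though all 15 had a positive log2 fold change, with a median of 2.28. Much of each sum was Lyz2, which shares reads and is uncertain, at 85.25 and 403.6 CPM in DF508 and 59.29 CPM in WT. Beside the myeloid sums, the ratio of Npas2 to WT was 0.404 in replicate 1 and 0.285 in replicate 2, and that of Arntl 0.674 and 0.673. Among smooth muscle and pericyte markers, 4 of the 10 tested rose, Cnn1 (3.56-fold), Acta2 (2.47-fold), Lmod1 (2.04-fold) and Tagln (2.02-fold), and none fell (edgeR adjusted p = 0.00335, 0.00178, 0.0222 and 0.0112). DESeq2 called 2 of these 4 and gave the others no adjusted p, and limma called none. Acta2 shares reads and is uncertain. That list summed to 1999 and 1968 CPM in DF508 and 1135 CPM in WT, with Rgs5 at 0 in WT. Of its 10 tested genes 8 had a positive log2 fold change. Negative were 2, Pdgfrb and Mcam, picked after their values were seen. Pdgfrb had 81.17 and 76.95 FPKM in DF508 and 87.54 FPKM in WT, and Mcam 19 and 4 counts in DF508 and 18 counts in WT. Over all genes tested 0.489% rose. The marker lists too were chosen with earlier results of these data known, so their shares of calls only describe these data. Of the 4 endothelial markers Pecam1 and Cdh5 were listed in no library and Kdr had at most 1 count, while Tek had 69 and 65 counts in DF508 and 77 counts in WT (edgeR adjusted p = 0.778). Of 15 tendon markers, Dcn rose (1.43-fold) and Cilp fell (1.36-fold) (edgeR adjusted p = 0.0417 and 0.0404). DESeq2 called both and limma called neither, and none of 5 stem cell surface markers passed. In bulk RNA, fewer cells of a type and less RNA per cell cannot be told apart, and the part of cell makeup in the clock gene values was not tested.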

How the data were processed

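Poly(A) RNA of 2 DF508 libraries and 1 WT library was sequenced on the Illumina HiSeq platform, per the labels' protocols. Bowtie and RSEM with mm9 were used, per the submitters' processing notes. The sources used here give no tool versions and no annotation release. Per the file headers, each deposited table holds RSEM's expected count per gene (not normalized), the FPKM (normalized by the authors for length and depth) and the length in bases (unit other). A table lists only genes above 0, and a missing gene was set to 0. Of the expected counts 79.4% to 79.8% per library were whole within 0.005; a gene with an estimate that is not whole shares reads and is called uncertain.

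The 10 genes, the gene lists and the named genes were chosen with earlier results of these data known. Named outside the core set were every gene of the other clock lists past the threshold, or the 3 with the highest mean FPKM where none passed, up to 4 called genes of each further list, Cftr and the 6 genes most like Npas2. Markers of tendon, stem and endothelial cells are named besides as a check of the cell type, picked after their values were seen, as were other genes where the text says so. Symbols came from a RefSeq table of GRCm38.p6 (16579 of 16621 IDs matched). Expected counts were rounded and fitted for all genes with edgeR 4.0.16 (TMM, filterByExpr, quasi-likelihood test, genotype as the sole term) in R 4.3.3, with p-values adjusted by Benjamini-Hochberg over 12888 genes. The fit has 1 residual and 7.7 prior degrees of freedom, and the WT library is assumed to vary like the DF508 pair. An SE is the log2 fold change over the square root of F. Alternatives were other scalings and filters, DESeq2 1.42.0, limma 3.58.1 on log2 FPKM and each DF508 library left out. The fit was tested on simulated data in which every gene had the same dispersion (spread beyond counting error). That checks the code, not how far these libraries vary.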

Additional observations from a re-analysis of the deposited data

How the results depend on the processing

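Scaling to TMM or DESeq2 library sizes, or use of the deposited FPKM, left the log2 ratio of DF508 to WT within 1 SD of the DF508 pair for 9 of the 10 clock genes each. The exception was Arntl, whose SD was close to 0 (-0.615, -0.613 and -0.555, against -0.57). Within its SD, Dbp turned in sign, its log2 ratio of 0.01 becoming -0.035 with TMM and -0.0338 with DESeq2 size factors. Without replicate 1 or 2 in turn, Dbp ran from -0.03 to 0.0476, Clock from -0.099 to 0.0155 and Npas2 from -1.81 to -1.31. The genes below WT numbered 3 in the main comparison, 4 with either other scaling, and 3 to 5 with 1 DF508 library left out. The activator minus repressor difference of -0.88 ran from -1.07 to -0.68 with a library left out and was -0.46 without Npas2. The call of Bhlhe40 was made with DESeq2 size factors in edgeR and at a mean of at least 50 counts. Bhlhe40 was not called without a filter, with DESeq2's Wald test or with limma on log2(FPKM + 1) or log2(FPKM + 0.1). In those settings none of the further clock genes was called, and 7, 1, 7 and 7 of them had an unadjusted p under 0.05. Over all genes these settings called 0, 67, 0 and 0, with 1123, 400, 1145 and 1159 at an unadjusted p under 0.05, against 179 calls in the main comparison and 260 with DESeq2 size factors. Npas2 was not called without a filter or with limma, and DESeq2 gave it no adjusted p. The cause was not tested. Further clock genes at least 2-fold from WT numbered 1 with both DF508 libraries and 2 to 3 with 1 left out; with 1 library a group there was no test. No paired analysis was possible because WT has 1 library and carries no replicate number.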
